A study of Mus musculus with 2 samples.

Results

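The nuclear factor I family of transcription factors has 4 genes in the mouse, Nfia, Nfib, Nfic and Nfix, and these 4 symbols each matched 1 row of the 34285 genes counted in both libraries. Single-cell RNA sequencing was performed on first mandibular molars with their surrounding tissues from C57BL/6J mice at PN15.5. Lipo-Clo mice received clodronate liposomes intraperitoneally at 40 μg/g body weight, first at PN3.5 and last at PN12.5 with 3 days between injections, and Lipo-PBS mice received vehicle liposomes on the same days. Clodronate liposomes are taken up by phagocytic cells and kill them, and the study asked what the loss of macrophages does to the dental mesenchyme during root formation. Each condition is 1 library, and the number of mice in it is not given in the sources used here, so no test between the conditions was made, and treatment and library cannot be told apart. Values in pairs are given for Lipo-Clo first and Lipo-PBS second. All intervals are exact 95% intervals that cover counting error only.

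Nuclear factor I proteins bind a palindromic DNA site as dimers through a conserved domain at their amino-terminal end, and they activate or repress genes depending on the cell. Nfic is the member best known in teeth, since mice without it form crowns but hardly any molar roots. Nfia is known for glial differentiation, Nfib for lung and hair follicle stem cells and Nfix for muscle and brain. In root formation, mesenchyme of the papilla and follicle gives rise to odontoblasts, cementoblasts, osteoblasts and the periodontal ligament (PDL).

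The conserved domain makes the 4 genes alike in sequence, and whether this touches the counting of reads per gene was not tested. The best matching 90 coding bases lie in exon 2 of each gene (GENCODE M21 transcripts, GRCm38 positions), which is on the plus strand for Nfia and on the minus strand for the other members. The stretches are shown 5′ to 3′, with the 23 positions at which any of the 4 genes differs in capitals.
Nfia, chr4:97783124-97783213: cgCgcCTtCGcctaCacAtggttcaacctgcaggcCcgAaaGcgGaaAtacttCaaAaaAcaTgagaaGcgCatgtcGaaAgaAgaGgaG
Nfib, chr4:82498638-82498727: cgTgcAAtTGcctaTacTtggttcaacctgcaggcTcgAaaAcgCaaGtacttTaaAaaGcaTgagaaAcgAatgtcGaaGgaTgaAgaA
Nfic, chr10:81420667-81420756: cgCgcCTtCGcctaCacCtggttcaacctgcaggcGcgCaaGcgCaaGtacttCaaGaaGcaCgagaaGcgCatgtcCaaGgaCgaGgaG
Nfix, chr8:84772184-84772273: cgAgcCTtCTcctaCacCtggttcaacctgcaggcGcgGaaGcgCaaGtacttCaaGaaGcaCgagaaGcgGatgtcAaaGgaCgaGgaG
Nfix matched Nfic at 94.4% of these bases, Nfia at 87.8% and Nfib at 80.0%. Over all annotated transcripts, the longest run that 2 members share was 32 bases, between Nfic and Nfix, and no run of 50 bases was shared by any pair. Antisense or other genes overlap all 4 members, and of those counted none had over 65 UMIs in the mesenchyme of a library.

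Depth was similar in the 2 libraries. After filters, 8254 Lipo-Clo cells with 26852423 UMIs and 8261 Lipo-PBS cells with 25831678 UMIs remained, with medians of 2567 and 2678 UMIs per cell. The 2 libraries share 30 cell barcodes. Mitochondrial transcripts took 0.370% of the UMIs in Lipo-Clo and 1.73% in Lipo-PBS. Macrophages, named from a list that holds C1qa, Csf1r and Adgre1, made up 126 and 172 cells. Of 25 clusters, 8 were dental mesenchyme (4102 Lipo-Clo and 3906 Lipo-PBS cells), and 2 stayed without a name because another list held more of their leading genes. These 2 were led by Acta2, with 40 and 660 cells, and by Cd74 and Lyz2, with 385 and 231 cells.

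Members were found across the stromal classes, each with its own order of classes. Levels are UMIs of the gene in every 1000000 UMIs of the class (CPM). Nfib was highest in endothelium, at 564 and 513 CPM. Glia followed at 214 and 235 CPM, and the next classes, perivascular cells and epithelium, did not all differ from their neighbours beyond counting error. Nfia had the same leading classes, with 506 and 589 CPM in endothelium, 443 and 446 CPM in glia and 316 and 333 CPM in perivascular cells. Endothelium and glia did not differ in Nfia in Lipo-Clo beyond counting error, but did in Lipo-PBS. Nfix led in dental mesenchyme, at 208 and 251 CPM, followed by cycling cells at 171 and 215 CPM, from which it did not differ beyond counting error in Lipo-PBS. For Nfic the cycling cells (154 and 161 CPM), mesenchyme (132 and 134 CPM) and glia (127 and 138 CPM) came first, and these 3 did not differ from their neighbours beyond counting error in either library.

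Free RNA in the droplets gives UMIs in cells that do not make them, so neutrophils, which should lack mesenchymal transcripts, were used as a measure of background. There Nfia stood at 45.1 and 134 CPM, and Nfib at 21.7 and 73.2 CPM. Nfic stood there at 31.3 and 44.7 CPM and Nfix at 40.3 and 102 CPM. Nfia, Nfib and Nfix were thus higher in the Lipo-PBS neutrophils beyond counting error, whereas the interval for Nfic included 0. The 8 mesenchymal markers summed in the same neutrophils reached 13.7% and 26.2% of their mesenchymal level, while Nfia reached 29.6% and 54.3% and Nfib 29.6% and 39.9%, so the members were there at a larger share than the markers. A level at or below that in neutrophils of the same library was read as background. Neutrophils are a stricter choice than B cells for Nfia and Nfib. Erythroid cells stood higher still, at 104 and 159 CPM of Nfia and 29.1 and 87.7 CPM of Nfib, but states were not counted against them. B cells had only 28.6 and 52.7 CPM of Nfia and 10.7 and 21.5 CPM of Nfib. Yet B cells held the 8 markers at 20.9% and 28.4% of their mesenchymal level, more than neutrophils. Nfia in B cells was at 18.8% and 21.3% and Nfib at 14.6% and 11.7% of the mesenchymal level. Which states count as background thus rests on the class chosen. Macrophages, the cells that the liposomes target, had 1 and 14 Nfib UMIs, both under the neutrophil level.

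**Figure D1:**
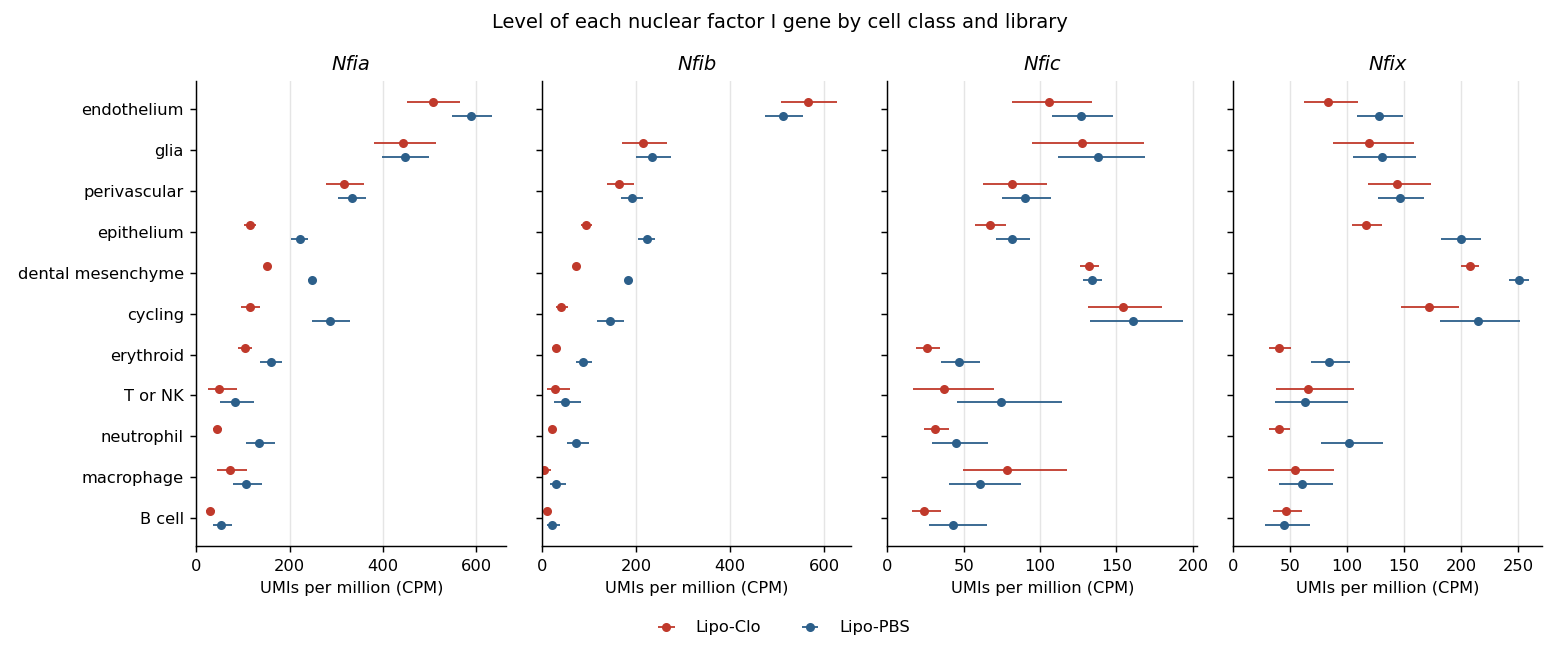
Level of each member, in UMIs per 1000000 UMIs of the class (CPM), in 11 cell classes of Lipo-Clo (red) and Lipo-PBS (blue); points are summed counts and bars exact 95% Poisson intervals, with 1 library per condition. Endothelium leads for Nfia and Nfib, mesenchyme for Nfix, and Nfic lies within 24.1 to 161 CPM in all classes.

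Within dental mesenchyme, the summed levels of Nfia and Nfib were lower in Lipo-Clo than in Lipo-PBS, and that of Nfic did not differ beyond counting error. Nfib had 988 and 2365 UMIs, or 73.4 and 184 CPM. Its log2 ratio of Lipo-Clo over Lipo-PBS was -1.32 (-1.43 to -1.22), a level 2.50-fold higher in Lipo-PBS. Nfia had 2048 and 3178 UMIs, or 152 and 247 CPM, with a log2 ratio of -0.70 (-0.78 to -0.62). Nfix was less far apart, with 2798 and 3230 UMIs, 208 and 251 CPM and a log2 ratio of -0.27 (-0.35 to -0.20). The interval for Nfic included 0, with 1780 and 1727 UMIs, 132 and 134 CPM and a log2 ratio of -0.02 (-0.12 to 0.08). These values rest on the background taken. With the neutrophil level of each library subtracted, Nfia was at -0.077, Nfib at -1.10, Nfic at 0.17 and Nfix, turned in direction, at 0.17. With the level of B cells subtracted they were at -0.65, -1.37, 0.245 and -0.35.

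All 4 members were among the 4702 genes in use, defined as seen in 10% or more of the cells of this class in 1 library or both. Past 1.5-fold, by size alone, 2 of the 4 members were lower in Lipo-Clo, against 5.08% of all genes in use (239 genes). None of the members was higher past that limit, against 0.787% (37 genes). At the same mixture of states in both libraries, which is described further on, 0 of 4 members passed the limit. Of the 4702 genes in use, 165 stayed lower past it. Relative to genes of the same span 1 of 4 members was lower past it, Nfib, beside 156 of 4687 genes. Of the genes in use, 16 had a lower ratio than Nfib and 136 a lower ratio than Nfia, while Nfic lay near the middle, with 49.4% of genes below it. The median log2 ratio of all genes in use was -0.02.

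The share of cells with a UMI also differed for Nfib and hardly for Nfic. With each cell thinned to 1000 UMIs, Nfib was seen in 7.39% and 15.9% of mesenchymal cells, and in 2.32% and 6.56% of neutrophils. Unthinned, the mesenchymal shares were 15.02% and 30.4%, at medians of 2790 and 2945.5 UMIs per cell. Thinning left out 379 Lipo-Clo and 263 Lipo-PBS mesenchymal cells. Nfic was seen in 13.1% and 13.8% of thinned mesenchymal cells, against 4.21% and 3.83% of neutrophils.

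Mesenchymal states differed far more in Nfib than in Nfic. Among 11 states, formed without the 4 members, Nfib ran from 8.15 to 485 CPM and from 23.2 to 594 CPM. Nfic ran only from 84.3 to 204 CPM and from 78.0 to 177 CPM, and it was above the neutrophil level in all 11 states of both libraries. Nfix ran from 70.7 to 556 CPM and from 74.3 to 496 CPM.

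Nfib was concentrated in fibroblast-like and PDL-like cells. In the fibroblast-like state led by Mfap5, a microfibril protein, and Clec3b, tetranectin, it reached 485 and 594 CPM. The fibroblast-like state led by Ccl19 and Col14a1 followed, at 347 and 579 CPM, and in Lipo-PBS these 2 states did not differ beyond counting error. A small fibroblast-like state led by Igfbp6 and Ebf2, with 20 and 42 cells, stood at 334 and 294 CPM. The PDL-like state led by Edil3 and Itgbl1 had 155 and 308 CPM. The other PDL-like state, led by Pappa2 and Tnn, had only 37.3 and 40.3 CPM, so the 2 PDL-like states differed in Nfib. In osteoblast or cementoblast-like cells, led by Ibsp, Nfib stood at 14.7 and 36.8 CPM, and in papilla or pulp-like cells at 8.65 and 23.2 CPM. Values this low were read as background, and 5 states in Lipo-Clo and 7 in Lipo-PBS were at or below the neutrophil level, against 2 and 0 at or below the level in B cells.

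Nfia followed Nfib in the fibroblast-like states but reached further into other states. It stood at 682 and 748 CPM in the Mfap5 state, 535 and 662 CPM in the Ccl19 state and 573 and 768 CPM in the small Igfbp6 state. In the Edil3 PDL-like state it stood at 173 and 202 CPM, close to the state led by Pcp4 and Mmp13 at 155 and 180 CPM, from which it did not differ beyond counting error. Osteoblast or cementoblast-like cells (40.6 and 73.0 CPM) and dental follicle-like cells (51.4 and 64.6 CPM) were among the 3 lowest states in both libraries, while the other was odontoblast-like cells in Lipo-Clo, at 41.9 CPM, and the Pappa2 PDL-like state in Lipo-PBS, at 101 CPM. Nfia was at or below the neutrophil level in 2 states of Lipo-Clo and 5 of Lipo-PBS, and below that in B cells in 0 and 0.

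Nfic and Nfix stood above background in mineralizing cells too, except Nfix in odontoblast-like cells of Lipo-PBS. For Nfic, osteoblast or cementoblast-like cells had 183 and 165 CPM and lay among the fibroblast-like states, which ran from 167 to 204 CPM and from 136 to 177 CPM. Their neighbour above in each library, the Ccl19 state at 204 and 166 CPM, did not differ from them beyond counting error. Odontoblast-like cells, led by Bglap and Dspp (dentin sialophosphoprotein), had 102 and 78.0 CPM. Papilla or pulp-like cells had 84.3 and 80.4 CPM. Dental follicle-like cells, with 115 and 108 CPM, lay between. Nfix was lowest in odontoblast-like cells, at 70.7 and 74.3 CPM, and stood at 170.1 and 179 CPM in osteoblast or cementoblast-like cells.

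**Figure D2:**
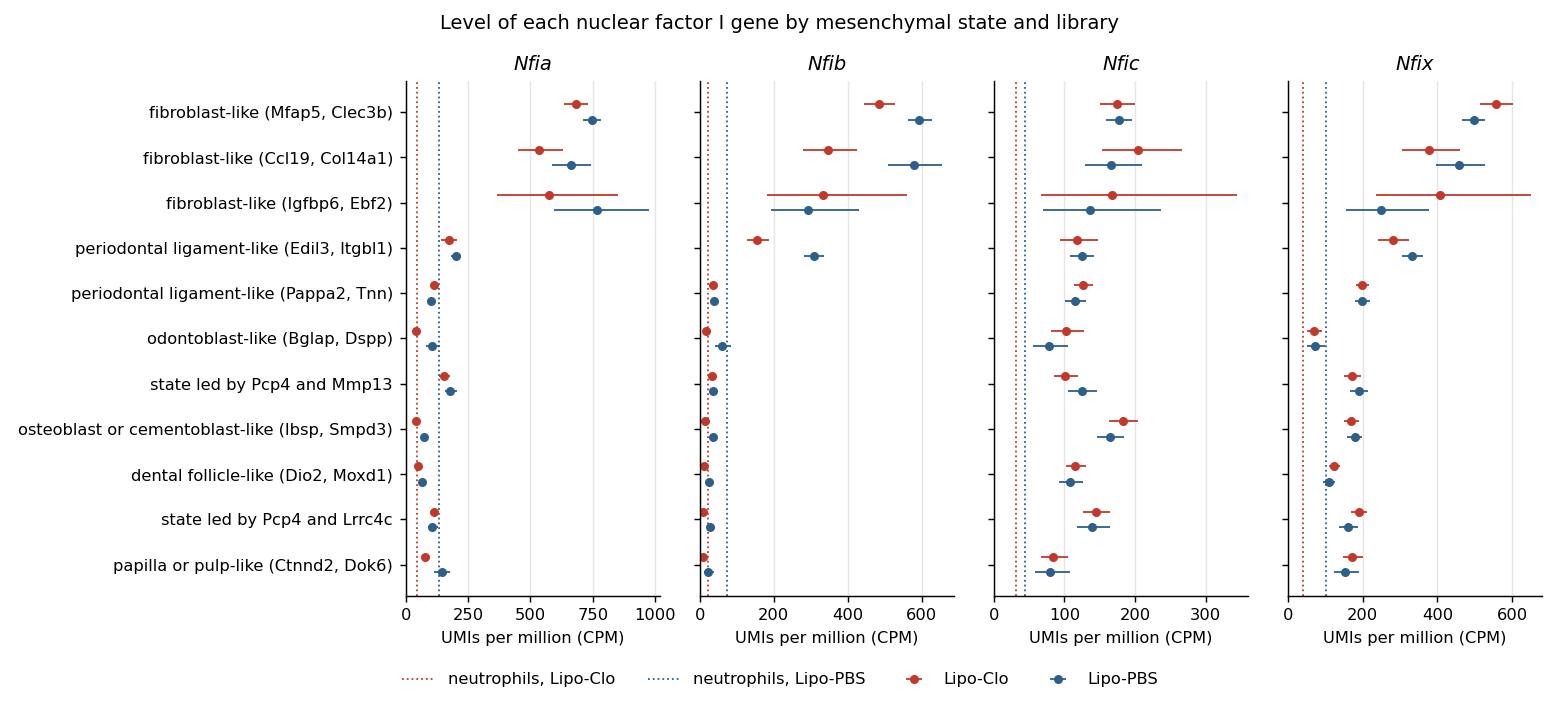
Level of each member, in UMIs per 1000000 UMIs of the state (CPM), in 11 mesenchymal states of Lipo-Clo (red) and Lipo-PBS (blue); bars are exact 95% Poisson intervals and dotted lines the level in neutrophils of each library. Nfib stands far above the dotted lines in 4 states, while Nfic stands above them in all 11.

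Members can also be set against each other within the same cells, although UMI counts are not per length and only the change between states is read. In the Mfap5 fibroblast-like state, Nfib UMIs per Nfic UMI were 2.79 (2.36 to 3.30) and 3.37 (2.998 to 3.78). In the Edil3 PDL-like state they were 1.32 (0.973 to 1.79) and 2.47 (2.11 to 2.91), whose intervals do not overlap. The Pappa2 PDL-like state had 0.293 (0.233 to 0.367) and 0.350 (0.267 to 0.455), whose intervals overlap. Its Nfib was under the neutrophil level in Lipo-PBS, so this overlap is not read as agreement. Osteoblast or cementoblast-like cells had 0.0804 (0.0512 to 0.121) and 0.223 (0.168 to 0.293), but their Nfib was under the neutrophil level, so the difference between these 2 values is not read. Nfic made up 9.16% and 8.77% of the family's UMIs in the Mfap5 state and 44.8% and 36.3% in osteoblast or cementoblast-like cells. The share was also high in dental follicle-like cells, at 38.2% and 35.3%, and in odontoblast-like cells it was 43.8% and 24.6%, so it did not mark the mineralizing cells apart.

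Over the 9 states with at least 100 cells in each library, 18 points in all, the log2(CPM + 10) levels of Nfia, Nfib and Nfix ran together, with Pearson r of 0.90 for Nfia and Nfib, 0.92 for Nfia and Nfix and 0.93 for Nfib and Nfix. Nfic ran less closely with them, at 0.46 with Nfia, 0.54 with Nfib and 0.60 with Nfix. These are descriptions, since the points share 2 libraries and their free RNA. The genes in use most like Nfib were Mgp (r = 0.97), which encodes an inhibitor of calcification, Angptl1 (0.95), Gdf10 (0.95), Lysmd2 (0.94) and Nfix (0.93). For Nfia they were Pmp22 (0.95), Cd34 (0.92), the fibril-associated collagen Col14a1 (0.92), Nfix (0.92) and the semaphorin receptor Nrp1 (0.91). For Nfix they were Nfib (0.93), Mgp (0.93), Lysmd2 (0.92), Nfia (0.92) and S100a16 (0.91). The genes most like Nfic had lower values, from 0.82 for the immediate early gene Ier2 and 0.82 for Gng10 to 0.80 for Cd81, 0.80 for S100a10 and 0.80 for Qpct.

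Set state by state, the differences between the libraries were smaller than over the whole mesenchyme in the cells with the most Nfib. In the Mfap5 fibroblast-like state, the log2 ratio of Nfib was -0.29 (-0.44 to -0.15) and that of Nfia -0.13 (-0.26 to -0.01). In the Ccl19 fibroblast-like state they were -0.74 (-1.10 to -0.39) and -0.31 (-0.61 to -0.01). The largest Nfib difference in a state above the neutrophil level in both libraries was in the Edil3 PDL-like state, at -0.99 (-1.30 to -0.68). With B cells as background, 9 states were above it in both libraries, and Nfib was lower and clear of 0 in 6. The largest of these differences was in odontoblast-like cells, at 18.3 and 59.4 CPM (-1.70, -2.72 to -0.75). Osteoblast or cementoblast-like cells were at -1.32 (-2.05 to -0.64). Both were under the neutrophil level. In the Pappa2 PDL-like state, Nfib had a ratio of -0.11 (-0.55 to 0.33) and Nfia of 0.19 (-0.07 to 0.46), both intervals including 0. Both members were under the neutrophil level there in Lipo-PBS.

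Nfib was lower in Lipo-Clo in 10 of 11 states, with an interval clear of 0 in 8. Only 4 states were above the neutrophil level in both libraries, and in 3 of these Nfib was lower with the interval clear of 0, the exception being the small Igfbp6 state at 0.19 (-0.86 to 1.18). Nfia was above the neutrophil level in both libraries in 6 states, lower in all 6 and clear of 0 in 3. The largest difference of these 3 was in papilla or pulp-like cells, at -0.87 (-1.35 to -0.40). Their Lipo-PBS level of 145 CPM (115 to 180) was hardly above that of neutrophils, 134 CPM (105 to 168), and the intervals overlap. With B cells as background, Nfia was above it in all 11 states and lower and clear of 0 in 5. The largest of these differences was in odontoblast-like cells, at -1.34 (-2.01 to -0.69). Nfic had no state with an interval clear of 0 and was lower in 3 of 11. Nfix was lower in 5 of 11, with 1 state clear of 0 below it, the Edil3 PDL-like state at -0.25 (-0.49 to -0.01), and 1 above it, the Mfap5 fibroblast-like state at 0.17 (0.02 to 0.31).

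**Figure D3:**
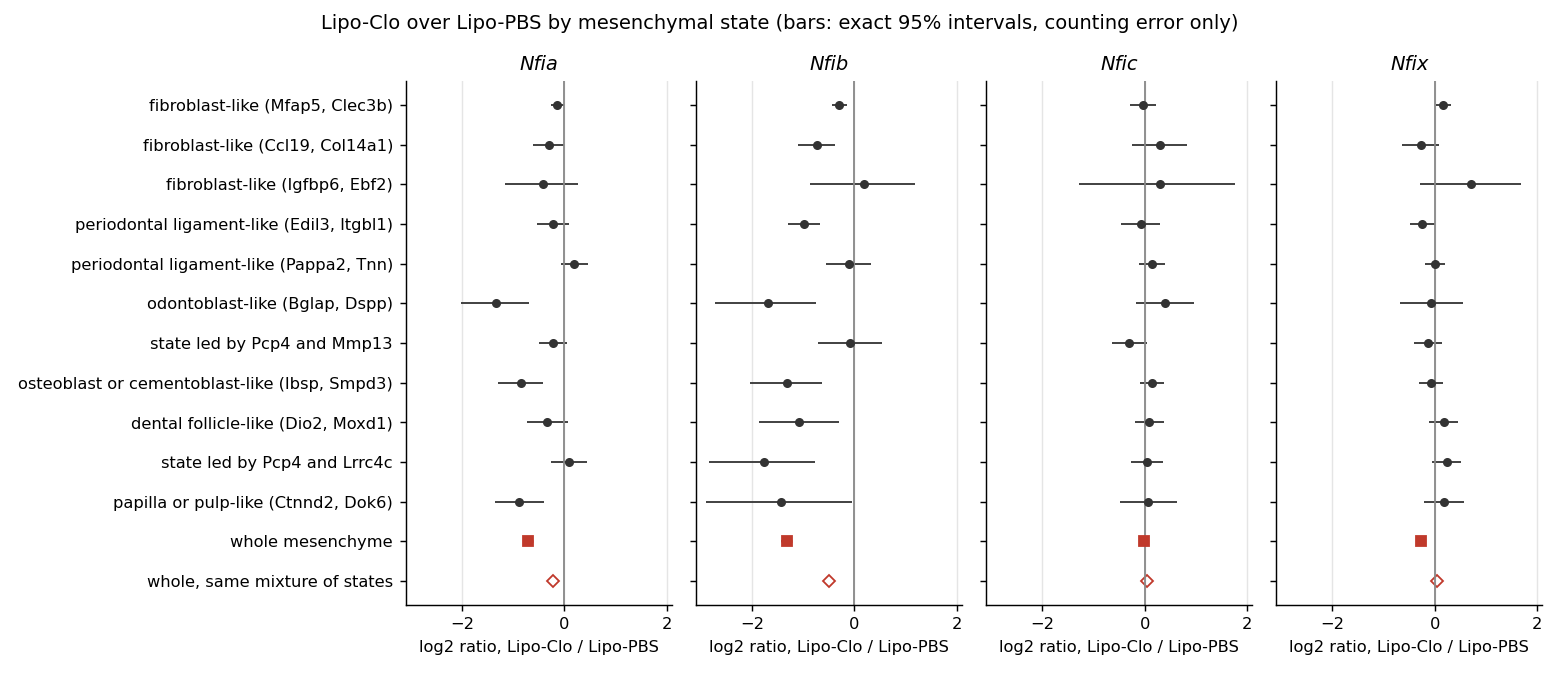
Log2 ratio of Lipo-Clo over Lipo-PBS for each member in 11 mesenchymal states (black), over the whole mesenchyme (red squares) and at 1 common mixture of states (open diamonds); bars are exact 95% intervals. The whole-mesenchyme squares for Nfib and Nfia lie at -1.32 and -0.70 and their diamonds at -0.50 and -0.21.

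The makeup of the mesenchyme also differed between the libraries. To compare shares of cells, states were formed again without the genes past 1.5-fold. Fibroblast-like cells then made up 14.4% (13.35 to 15.52) and 25.9% (24.5 to 27.3) of the mesenchymal cells. These cells held 65.2% and 65.6% of the Nfib UMIs of the mesenchyme, 45.5% and 60.8% of the Nfia UMIs, 26.1% and 39.6% of the Nfix UMIs and 14.0% and 26.5% of the Nfic UMIs. A PDL-like state led by Abi3bp and Mgp had 80 and 249 cells and 324 and 553 CPM of Nfib. When the 11 states were given the same weights in both libraries, the log2 ratio was -0.50 for Nfib, -0.21 for Nfia and 0.055 for Nfic, and for Nfix it turned to 0.035.

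The ratio also moved with the genomic span of genes. Of the 4702 genes in use, 99.7% could be joined to a GENCODE M21 gene. The 1170 genes of up to 10 kb had a median log2 ratio of 0.26 and the 385 genes of over 200 kb one of -0.30, with a Spearman correlation between ratio and span of -0.595 across genes, which are not independent replicates. Nfib spans 415.6 kb and Nfia 346.1 kb on chromosome 4, Nfix 100.5 kb on chromosome 8 and Nfic 59.5 kb on chromosome 10. Over the whole mesenchyme, the order of the members by span was the order of their ratios. It was not in the Mfap5 fibroblast-like state, where Nfix at 0.17 lay above Nfic at -0.02. Of the genes over 200 kb, 0.26% (1 gene) had a lower ratio than Nfib and 10.1% a lower one than Nfia. Relative to the median of their span group, the log2 ratios were -1.03 for Nfib, -0.40 for Nfia, 0.12 for Nfic and 0.00 for Nfix. The value for Nfix depends on the cut, since its 100.5 kb lie just inside the group of 100 to 200 kb (median -0.27). The adjacent group of 30 to 100 kb had a median of -0.145.

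By their median, long genes were also lower in Lipo-Clo within every state but the small Igfbp6 state, not only in those rich in Nfib. The median of genes over 200 kb was -0.46 in dental follicle-like cells and -0.435 in the Pappa2 PDL-like state, both low in Nfib. In the Mfap5 fibroblast-like state the 381 genes of over 200 kb with at least 20 UMIs had a median of -0.49 (quartiles -0.76 and -0.25), below the -0.29 of Nfib and the -0.13 of Nfia. In the Ccl19 state their median was -0.62 (quartiles -0.96 and -0.25), with Nfib between the quartiles. In the Edil3 PDL-like state it was -0.56 (quartiles -0.83 and -0.24), and Nfib at -0.99 lay below the lower quartile. The small Igfbp6 state went the other way, with a median of 0.13 (quartiles -0.38 and 0.49) over 90 genes. Nfib also lay below the lower quartile in osteoblast or cementoblast-like (-1.32 against -0.39) and odontoblast-like cells (-1.70 against -0.58). So it did in dental follicle-like (-1.07 against -0.77) and papilla or pulp-like cells (-1.42 against -0.46). The same held in the Pcp4 and Lrrc4c state (-1.76 against -0.44). There Nfib was under the neutrophil level. In the Pappa2 state (-0.11) and the Pcp4 and Mmp13 state (-0.08) Nfib lay above the upper quartile. Of 6 RNAs retained in the nucleus and in use in mesenchyme, 5 lay below 0. Malat1 stood at 12494 and 18873 CPM (log2 ratio -0.60) and Neat1 at 62.9 and 107 CPM (-0.76). Meg3 went the other way, at 305 and 292 CPM (0.06). Past 1.5-fold, 2 of the 6 were lower and 0 higher (median -0.32), against 5.08% lower and 0.787% higher of all genes in use. Of 13 dissociation response genes 1 was lower and 0 higher (median -0.17), a count too small to set apart from these shares. The part of RNA quality and of free RNA in the members' ratios was not tested.

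**Figure D4:**
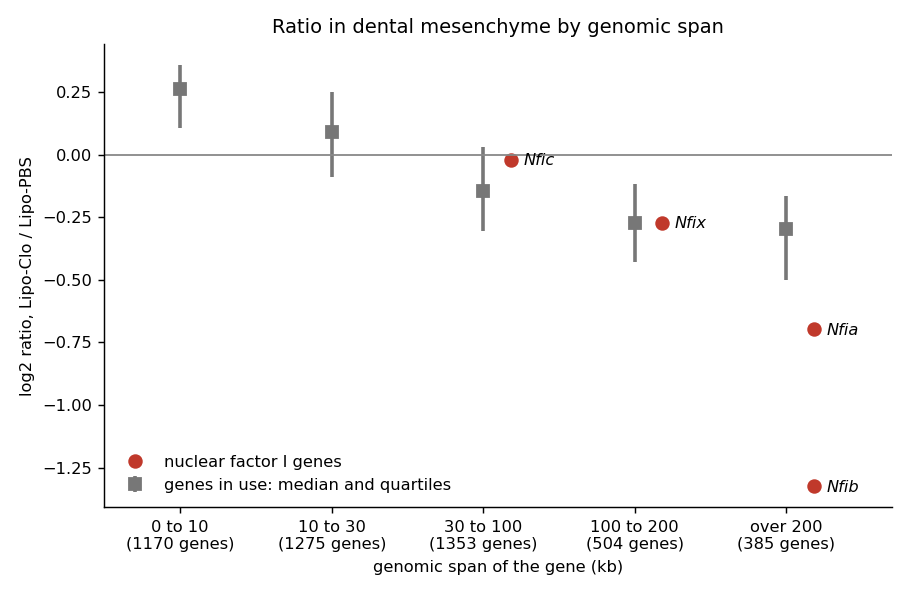
Log2 ratio of Lipo-Clo over Lipo-PBS in dental mesenchyme (vertical axis) for genes in use grouped by genomic span in kb (grey squares, medians; bars, quartiles) and for the 4 members (red). Group medians go from 0.26 for genes of up to 10 kb to -0.30 for genes over 200 kb. Nfic lies within the quartiles of its group at -0.02, and Nfia and Nfib lie below the lower quartile of theirs. Nfix, at 100.5 kb close to a group edge, lies on the median of the group of 100 to 200 kb.

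Over the 11 classes, mesenchyme included, Nfia was lower in Lipo-Clo in 11 (interval clear of 0 in 7), Nfib in 10 (6), Nfic in 10 (1) and Nfix in 9 (5). These counts include classes read as background. The Nfib classes clear of 0 included neutrophils, the measure of background, and macrophages, which lay under it with 1 and 14 UMIs. Those of Nfia included neutrophils and also B cells, at 28.6 and 52.7 CPM. Those of Nfix included neutrophils. The 1 of Nfic was erythroid cells, at -0.87 (-1.47 to -0.27). The same direction was seen in blood cell classes. Nfib ratios were -1.75 (-2.41 to -1.09) in neutrophils and -1.59 (-2.11 to -1.09) in erythroid cells. Nfia had a ratio of -0.88 (-1.67 to -0.09) in B cells. The erythroid and B cell values mixed clusters. Nfib was at -0.78 (-1.92 to 0.40) in erythroid cells led by Ahsp (321 and 148 cells). In those led by Hbb-bt (113 and 182 cells) it was at -0.94 (-1.55 to -0.36), so the class value lay below both. Nfic was at -0.34 (-1.44 to 0.83) in the Ahsp cluster and -0.36 (-1.14 to 0.38) in the Hbb-bt cluster, both intervals including 0. Nfia was at -0.90 (-1.88 to 0.06) and -0.48 (-1.98 to 1.20) in B cells led by Igkc and Igll1. The unnamed cluster led by Cd74 and Lyz2, not among the 11 classes, had Nfib at 5.67 and 66.9 CPM (-3.56, -4.52 to -2.70). Its Nfia stood at 22.3 and 159 CPM (-2.83, -3.31 to -2.37). The mesenchymal markers summed there reached 8.68% and 35.9% of their mesenchymal level. In perivascular cells and glia, no member had an interval clear of 0, with Nfib ratios of -0.21 (-0.53 to 0.09) and -0.13 (-0.53 to 0.26). Endothelium as a whole had a Nfib ratio of 0.14 (-0.05 to 0.33). This value mixed its clusters: in the cluster led by Cdh5, which had 371 and 377 cells, Nfib stood at 621 and 765 CPM (-0.30, -0.52 to -0.09), and in the cluster led by the lymphatic gene Ccl21a, with 32 and 146 cells, at 312 and 320 CPM (-0.04, -0.59 to 0.47). Epithelium as a whole had ratios of -1.24 (-1.46 to -1.03) for Nfib and -0.96 (-1.16 to -0.76) for Nfia, and it also mixed clusters. The cluster led by Lgals7 and Krt14 had 233 and 320 CPM of Nfib (-0.45, -0.70 to -0.21). Cells led by Ambn, which encodes the enamel protein ameloblastin, had 24.2 and 73.0 CPM (-1.60, -2.20 to -1.01), close to or under the neutrophil level. The cluster led by Cxcl14, with 59 and 74 cells, had 81.5 and 176 CPM of Nfib (-1.11, -2.13 to -0.19), above that level. In cycling cells, whose mesenchymal markers were at 92.4% and 89.7% of the mesenchymal level, Nfib stood at 40.5 and 144 CPM (-1.83, -2.38 to -1.29) and Nfia at 115 and 287 CPM (-1.32, -1.66 to -0.99).

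Genes linked with Nfic in root formation were set beside all genes in use. They were 47 genes of the hedgehog, BMP and TGF-β, Wnt and PTHrP pathways and of hard tissue differentiation, of which 33 were in use. Of these, 1 was past 1.5-fold higher and 0 were lower, with a median log2 ratio of -0.14. Among all genes in use, 0.787% were higher and 5.08% lower past it. Counts this small are not read as a trait of the list. Among the 33 in use, the highest ratio was that of Msx2, a homeobox factor of dental mesenchyme, at 57.7 and 34.9 CPM (0.72). Sp7 (osterix), the osteoblast factor reported downstream of Nfic, stood at 79.7 and 55.5 CPM (0.52), followed by the PTHrP receptor Pth1r at 49.5 and 39.4 CPM (0.33), Bmp7 at 47.9 and 39.6 CPM (0.27) and Pthlh at 164 and 139 CPM (0.24). At the low end of the 33 were the TGF-β receptors Tgfbr1, at 59.1 and 87.1 CPM (-0.56), and Tgfbr2, at 104 and 150 CPM (-0.53). The ubiquitin ligase Smurf2 stood at 74.0 and 108 CPM (-0.54), the hedgehog coreceptor Boc at 24.5 and 34.0 CPM (-0.47) and the signal transducer Smad2 at 33.4 and 44.2 CPM (-0.40). Of the 15 BMP and TGF-β genes in use, 12 lay below 0 and none past 1.5-fold. Below 0 lay 51.5% of all genes in use.

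Other transcription factors of the mesenchyme lay on both sides. Of 52 such genes 30 were in use, 5 of them past 1.5-fold lower and 2 higher, with a median of -0.08, against 5.08% lower and 0.787% higher of all genes in use. The lowest of the 30 was Bnc2, at 35.3 and 96.1 CPM (-1.45), the only one of the 30 below Nfib. Of those not in use, Ebf2 (75 and 234 UMIs, -1.71) and Foxp2 (21 and 66 UMIs, -1.72) were lower still. Ebf1 stood at 180 and 351 CPM (-0.96), Zeb1 at 59.2 and 106 CPM (-0.84), Prrx1, which marks limb and facial mesenchyme, at 169 and 294 CPM (-0.79) and Runx1 at 45.8 and 76.0 CPM (-0.73). The highest of the 30 were Msx2 at 0.72 and Sox9, a chondrogenic factor, at 52.1 and 32.0 CPM (0.70). Sp7 at 0.52, Msx1 at 134 and 103 CPM (0.38) and Prrx2 at 186 and 151 CPM (0.30) followed.

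The letters of the nuclear factor I site were searched in promoters. In RefSeq promoters (GRCm38.p6, 250 bases before to 50 after the start), the palindrome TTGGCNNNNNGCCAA was found in 12 of 32851 (0.037%), in 0 of the 45 promoters that matched 34 of the 47 root formation genes and in 0 of 6 promoters of Nfia, Nfic and Nfix. Its arm TTGGC, searched on both strands, was in 46.7% of all promoters and 48.9% of those of the root formation genes. No promoter was available for the other root formation genes, among them Sp7, Dspp, Col1a1, Gli1, Bmp2 and Shh, or for Nfib. With the palindrome in 0.037% of all promoters, 0 in lists this short is not read as a trait of them. A match is a description and not a bound site, and its lack says only that these letters are not in the window.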

How the data were processed

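The deposited matrices hold raw UMI counts, which the authors made with Cell Ranger and did not normalize. The file headers name Cell Ranger 8.0.0, whereas the submitters' processing notes list Cell Ranger 3.1.0, Seurat 3.1.1 and the build GRCm39. UMIs are molecules, so PCR copies are not counted again.

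Cells were kept from 200 genes upwards and up to 20% mitochondrial UMIs. Scrublet (scanpy 1.11.5) called 0 of 8886 Lipo-Clo and 1 of 8894 Lipo-PBS cells, so the highest scores, 632 and 633 cells, were left out in their place. On log values of 10000 UMIs a cell, 2000 variable genes without the members, 30 principal components and 20 neighbours entered Leiden clustering (leidenalg 0.10.2, resolution 1, seed 1), with no batch correction. Mesenchyme was clustered again (20 components, resolution 0.6).

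A marker counted at 2-fold over the median cluster in 10% of cells. A name needed 3 markers, and was refused where another list held more of the 10 leading genes. Class names were also refused where several lineages were marked, and state names where markers were weak. These rules were settled after the clusters were seen. Weak markers did not bar a class name. The mesenchymal clusters led by Kcnip4 (490 and 275 cells) and Ctnnd2 (412 and 224 cells) had 3 of 8 markers. Their mean log2 folds over the marker list were 0.495 and 0.295. States are rebuilt here and may differ from those of the study.

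UMIs were summed per class or state and library. Ratios carry the exact interval for 2 Poisson counts, shares the Clopper-Pearson interval. The ratio and its interval were run on counts simulated from the Poisson model that the interval assumes. This checks the calculation only, since the simulation held no spread between cells, mice or libraries. The members in full, the 5 extreme genes of each list in each direction and the 5 genes most like each member are named. The members and lists were chosen with earlier results of these data known. Alternatives used TMM (edgeR 4.0.16) and size factors (DESeq2 1.42.0) for scaling only.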

Additional observations from a re-analysis of the deposited data

Results flagged for a closer look

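Nfix in the fibroblast-like state led by Mfap5 and Clec3b went against the whole mesenchyme, and this opposite direction drew attention to it. It stood at 556 CPM in Lipo-Clo (624 UMIs) and 496 CPM in Lipo-PBS (1062 UMIs), a log2 ratio of 0.17 (0.02 to 0.31), whereas over all mesenchymal cells the ratio was -0.27 (-0.35 to -0.20). The difference between the state and the whole was not tested, since each condition has 1 library.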

How the results depend on the processing

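No paired analysis was possible because there is 1 library for each treatment. Over 19 alternatives Nfia and Nfib stayed below 0, from -0.84 to -0.077 and from -1.37 to -0.50, while Nfic ran from -0.07 to 0.245 and Nfix from -0.35 to 0.17. TMM, DESeq2 and totals without technical genes, thinning, the cell filters, other clusterings and cycling cells counted as mesenchyme (also chosen after seeing the data) moved no member beyond its interval. The mean over cells gave -1.21 for Nfib and -0.20 for Nfix. At 1 common mixture of states the ratios were -0.21 for Nfia, -0.50 for Nfib and 0.035 for Nfix, and a mixture of states formed without the genes past the limit, chosen after seeing the data like the next 4, gave -0.21, -0.52 and 0.031. With the cluster led by Acta2 counted as mesenchyme Nfia was -0.84 and Nfix -0.17. With the neutrophil level subtracted the ratios were -0.077 for Nfia, -1.10 for Nfib, 0.17 for Nfic and 0.17 for Nfix, and with the B cell level subtracted -0.65, -1.37, 0.245 and -0.35. Relative to genes of the same span they were -0.40, -1.03, 0.12 and 0.002. The 2 members past 1.5-fold became 0 at either mixture and 1 with neutrophils subtracted or span centred. The cause of these shifts was not tested. No count over all genes was made with neutrophils or B cells subtracted, or at the mixture formed without the genes past the limit. Genes past the limit numbered 689 higher and 863 lower at a limit under 1.5-fold, 7 and 46 at 2-fold and 846 and 1410 over 15120 genes with at least 20 UMIs. The common mixture left 23 higher, and the span centring 156 lower.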
